A study of Mus musculus with 9 samples.

Results

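The aminoacyl-tRNA synthetase genes were followed in splenic CD4+ T cells of the mouse. The family was taken as a list of 36 symbols, 20 for the cytosolic enzymes and 16 for the mitochondrial ones, out of 45321 annotated genes. The symbol given as Mars1 is called Mars in the annotation used here, and all 36 were found and passed the filter on low counts.

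The cells came from C57BL/6 mice, an inbred laboratory strain, and were purified without touching the CD4+ cells themselves. They were held for 1 h with Compound 10 at 12.5 µM or with its vehicle, DMSO, and then stimulated for 2 h with PMA at 10 nM plus ionomycin at 1 µM, or left unstimulated. The series presents the compound as an inhibitor of NFAT:AP-1, a pair of transcription factors switched on in stimulated T cells, and PMA with ionomycin bypasses the T cell receptor to activate both. There were 9 libraries, namely compound 10 stimulated (3), vehicle stimulated (2), compound 10 unstimulated (2) and vehicle unstimulated (2). Nothing in the labels ties the libraries of 1 group to different mice or separate cultures. The p-values therefore measure no more than the spread between these libraries, and that spread may be technical. Where groups are said below not to overlap, this only describes their libraries. With 2 or 3 libraries per group it also occurs in members that did not pass, and its share over all genes was not computed.

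An aminoacyl-tRNA synthetase joins an amino acid to the transfer RNA that reads its codons, and translation depends on this step. Cytosolic protein synthesis and mitochondrial protein synthesis mostly use separate enzymes, and both sets are encoded in the nucleus. Gars (glycine) and Kars (lysine) each serve both compartments from a single gene, and mitochondria lack a glutaminyl enzyme of their own, using Ears2 and an amidotransferase in its place. Several cytosolic enzymes sit in a multisynthetase complex on the scaffold proteins encoded by Aimp1, Aimp2 and Eef1e1. Resting T cells make little protein and raise its synthesis after activation, and cytosolic synthetase genes are known targets of ATF4, the transcription factor of the amino acid response.

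The libraries held between 10669821 and 21852830 estimated counts. Ribosomal RNA from nuclear genes took between 1.78% and 26.3% of the counts, and it was highest in vehicle libraries numbered 2 of either state (13.8% stimulated, 26.3% unstimulated). All 8 CD4 T cell markers were detected in every group, with summed levels of 1690 to 1858 CPM in compound 10 stimulated, 934 to 1099.6 CPM in vehicle stimulated, 1320 to 1554 CPM in compound 10 unstimulated and 743 to 963 CPM in vehicle unstimulated libraries. Markers of B cells summed to between 19.0 and 58.2 CPM, and those of CD8 T cells, myeloid cells, neutrophils and erythroid cells or platelets each to 13.5 CPM or less. Natural killer cell markers summed to 10.2 to 13.3 CPM in compound 10 stimulated against 3.39 to 3.96 CPM in vehicle stimulated libraries, and to 7.21 to 9.35 CPM in compound 10 unstimulated against 1.74 to 3.02 CPM in vehicle unstimulated libraries. The part of these marker levels in the results below was not tested. Fewer cells of a type and less RNA per cell cannot be told apart in bulk samples.

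Levels between genes were compared as TPM (the share of transcripts, adjusted for transcript length), and levels between libraries as CPM (the share of counts, scaled by TMM). Nars, the asparaginyl enzyme gene, had the highest TPM of the cytosolic members in each group, at 70.2 ± 22.6 in compound 10 stimulated (n = 3), 108 ± 16.0 in vehicle stimulated (n = 2), 71.1 ± 1.42 in compound 10 unstimulated (n = 2) and 61.3 ± 28.2 in vehicle unstimulated cells (mean ± SD, n = 2). Lars, for leucine, had the lowest, at 1.71 ± 0.244, 3.11 ± 0.468, 2.57 ± 0.164 and 3.47 ± 1.38 TPM in the same order of groups. Among mitochondrial members other than Lars2, the highest were Yars2 (tyrosine) in both stimulated groups, at 6.88 ± 0.122 TPM with compound 10 and 16.8 ± 0.613 TPM with vehicle, and Nars2 (asparagine) in both unstimulated groups, at 12.5 ± 0.353 TPM with compound 10 and 13.3 ± 1.29 TPM with vehicle. Lars2 alone stood at 792 ± 252 TPM in compound 10 stimulated and 928 ± 676 TPM in vehicle stimulated cells, far above every other member, and is taken up separately at the end.

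Summed over the 20 cytosolic members, the level was 1002, 1052 and 928 CPM in compound 10 stimulated against 1681 and 1464 CPM in vehicle stimulated libraries. In unstimulated cells the sum was 980.4 and 929 CPM with compound 10 against 1088 and 959 CPM with vehicle. The stimulated vehicle libraries thus stood above all 7 others, and the compound 10 libraries of both states lay close together. The 15 mitochondrial members without Lars2 summed to 134, 104 and 134 CPM in compound 10 stimulated against 113 and 110.4 CPM in vehicle stimulated libraries, which overlapped. In unstimulated cells their sum was 183 and 163 CPM with compound 10 against 124 and 125 CPM with vehicle, with no overlap. The difference in Mars2 alone, given further on, was larger than that between these sums. The ratio of cytosolic to mitochondrial TPM without Lars2 was 7.74, 9.98 and 7.997 in compound 10 stimulated against 14.5 and 12.1 in vehicle stimulated libraries, and 6.51 and 6.64 in compound 10 unstimulated against 7.70 and 6.16 in vehicle unstimulated libraries.

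**Figure D1:**
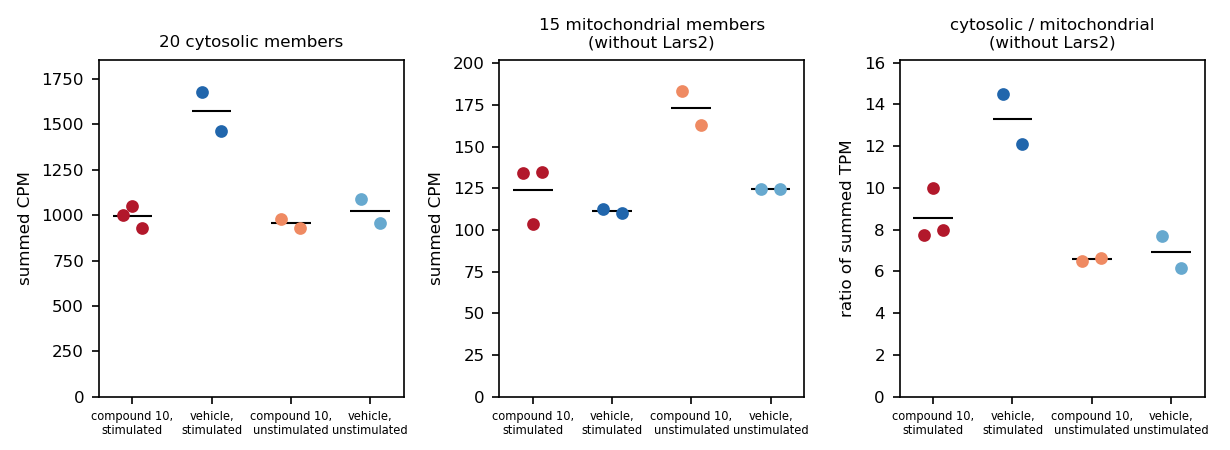
Summed level of the 20 cytosolic members (left, CPM), of the 15 mitochondrial members without Lars2 (middle, CPM) and the ratio of their summed TPM (right), with 1 point per library and a line at each group mean. The 2 stimulated vehicle libraries, at 1681 and 1464 CPM, stand above the other 7 in the left panel.

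Most cytosolic synthetase transcripts were lower with compound 10 in stimulated cells. Of the 20 cytosolic members, 13 fell and 1 rose with an adjusted p under 0.05 (edgeR's quasi-likelihood test with Benjamini-Hochberg adjustment over 14011 genes, as for every adjusted p below unless another tool is named), and 6 did not pass. Of all genes tested, 23.1% passed in this comparison, 11.4% as lower and 11.7% as higher. The median log2 fold change of the cytosolic members was -0.81, against 0.00 for all genes tested. Estimates ran from -1.88 for Cars to 1.16 for Vars, and 17 of the 20 were negative.

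Cars, which charges the cysteine tRNA, had 20.1, 14.9 and 16.4 CPM in compound 10 stimulated against 69.7 and 56.4 CPM in vehicle stimulated libraries, a log2 fold change of -1.88 (SE 0.21, adjusted p = 0.000123). Tars, for threonine, had 28.2, 37.7 and 23.6 CPM with compound 10 against 101.2 and 78.2 CPM with vehicle (-1.59, SE 0.21, adjusted p = 0.000283). Iars, for isoleucine, had 28.2, 18.2 and 20.9 CPM against 65.1 and 55.5 CPM (-1.42, SE 0.19, adjusted p = 0.000382). In each of the 3 genes every compound 10 library lay below both vehicle libraries, by a wide margin. Mars, for methionine, had 9.54, 8.73 and 6.98 CPM with compound 10 against 24.1 and 20.8 CPM with vehicle (-1.41, SE 0.22, adjusted p = 0.000786). Yars, for tyrosine, had 13.1, 14.7 and 10.9 CPM against 33.3 and 34.4 CPM (-1.39, SE 0.20, adjusted p = 0.000511). Again the groups did not overlap.

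Farsa and Farsb encode the alpha and beta subunits of the enzyme that charges phenylalanine tRNA. Farsa had 14.0, 16.5 and 16.2 CPM in compound 10 stimulated against 41.7 and 37.7 CPM in vehicle stimulated libraries, a log2 fold change of -1.35 (SE 0.18, adjusted p = 0.000382). Farsb had 19.7, 13.5 and 15.4 CPM against 28.1 and 26.9 CPM (-0.76, SE 0.19, adjusted p = 0.0128). Both subunit genes were lower in every compound 10 library than in either vehicle library, and the fall in Farsa was estimated as the larger of the 2, which was not tested as a difference.

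The remaining cytosolic members that fell were those for arginine, histidine, serine, leucine, lysine and glycine. Rars (arginine) had 56.3, 53.9 and 49.4 CPM with compound 10 against 121 and 111 CPM with vehicle in stimulated cells (-1.13, SE 0.17, adjusted p = 0.000584). Hars (histidine) had 49.5, 44.7 and 44.6 CPM against 103 and 91.2 CPM (-1.07, SE 0.15, adjusted p = 0.000457). The stimulated compound 10 libraries lay between 44.6 and 56.3 CPM for these genes, near the 38.0 to 62.4 CPM of unstimulated libraries. Sars (serine) had 39.8, 28.9 and 33.1 CPM against 70.1 and 63.3 CPM (-0.98, SE 0.17, adjusted p = 0.00151). Kars (lysine) had 40.7, 37.5 and 36.7 CPM against 73.1 and 61.2 CPM (-0.81, SE 0.15, adjusted p = 0.00281). Lars (leucine) had 7.37, 8.47 and 8.29 CPM against 12.3 and 16.1 CPM (-0.81, SE 0.21, adjusted p = 0.0157). Gars (glycine) had 106, 86.8 and 98.5 CPM against 178 and 140.2 CPM (-0.71, SE 0.18, adjusted p = 0.0133). None of these genes overlapped between the 2 groups, but neither did Aars, Eprs, Nars and Wars, which did not pass. Kars and Gars, which also supply mitochondria, fell with the rest.

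Vars, for valine, moved the other way. It had 36.3, 22.5 and 23.3 CPM in compound 10 stimulated against 13.9 and 10.6 CPM in vehicle stimulated libraries, a log2 fold change of 1.16 (SE 0.29, adjusted p = 0.0138). Every compound 10 library lay above both vehicle libraries, with library 1 the highest. Wars (tryptophan, -0.81, adjusted p = 0.0533), Nars (-0.58, adjusted p = 0.0650) and Aars (alanine, -0.45, adjusted p = 0.0668) were just outside the threshold. Eprs (glutamate and proline), Qars (glutamine) and Dars (aspartate) had estimates of 0.24, 0.16 and -0.08.

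These calls leaned on the 2 stimulated vehicle libraries. The call was lost without vehicle library 1 for Gars, without vehicle library 2 for Lars and Vars, and without either for Farsb, and 12 and 11 cytosolic members passed without libraries 1 and 2. On the log2(TPM + 1) scale with limma, 9 passed as lower and Vars did not pass, and with no filter on low TPM values 0 passed.

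**Figure D2:**
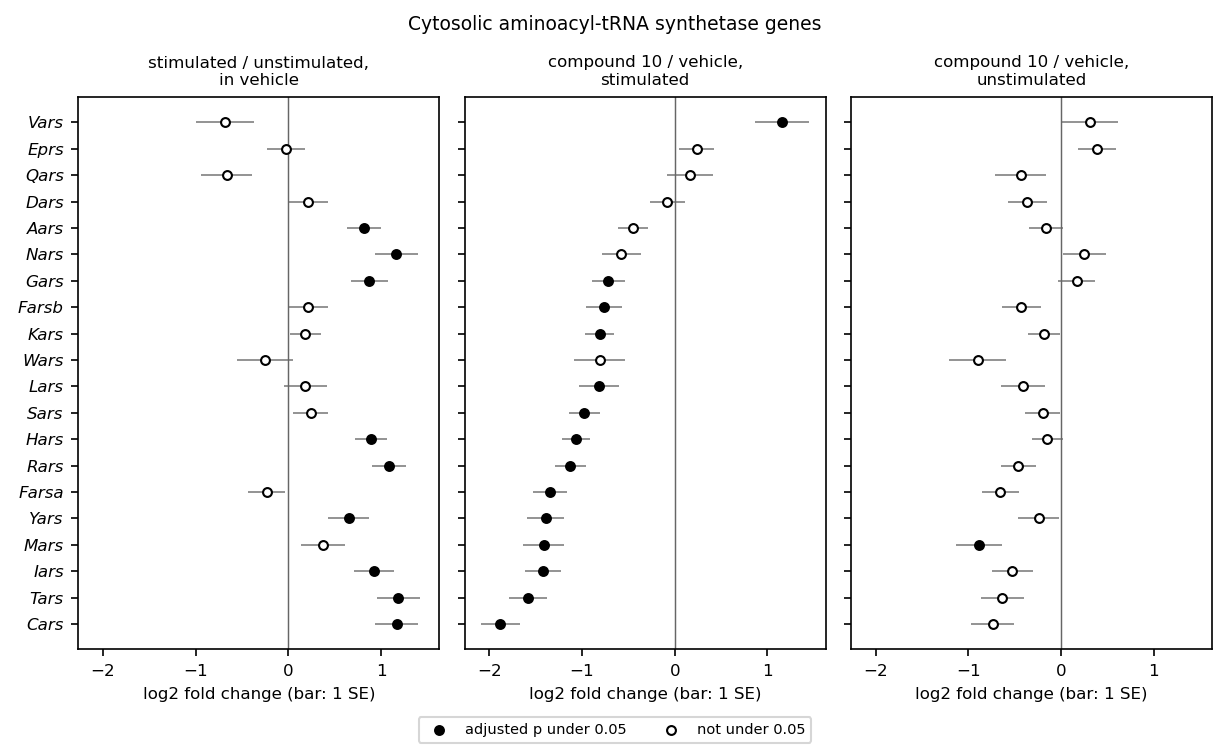
Log2 fold changes with 1 SE for the 20 cytosolic members in 3 comparisons: stimulated over unstimulated in vehicle (left), compound 10 over vehicle in stimulated cells (middle) and in unstimulated cells (right). Filled points have an adjusted p under 0.05: 9 are right of 0 in the left panel, 13 are left of 0 and 1 (Vars) is right of it in the middle panel, and 1 (Mars) is left of 0 in the right panel.

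The lower levels were spread over the structural classes and over the multisynthetase complex. Synthetases belong to class I or class II by the fold of their catalytic domain. Of the 10 cytosolic members of class I, 6 fell and 1 rose under compound 10 in stimulated cells (median -0.97), and 7 of 10 of class II fell (median -0.79). Of all genes tested, 11.4% fell and 11.7% rose in this comparison. Among the 8 members that sit in the complex (Dars, Eprs, Iars, Kars, Lars, Mars, Qars and Rars) 5 fell and 0 rose (median -0.81), and among the 12 outside it 8 fell and 1 rose (median -0.89). At an unadjusted p under 0.05 none of the members in the complex rose either. Of all 14011 genes tested, 4822 had such a p, in either direction.

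The scaffold genes of the complex did not move as a unit. Aimp2 had 29.97, 32.8 and 33.5 CPM in compound 10 stimulated against 56.9 and 62.9 CPM in vehicle stimulated libraries (-0.90, SE 0.16, adjusted p = 0.00158). Eef1e1 had 75.2, 77.9 and 92.6 CPM against 117 and 151 CPM (-0.71, SE 0.17, adjusted p = 0.00896). Aimp1 had 29.6, 21.5 and 25.4 CPM against 16.5 and 14.6 CPM (0.71, SE 0.19, adjusted p = 0.0194). So 2 of the 3 scaffold genes were lower with compound 10, without overlap, and Aimp1 was higher, also without overlap.

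Promoters of the members were searched for a pair of short motifs, in the 250 bases before and 50 after the start site given by RefSeq (GRCm38.p6), on both strands. TGATGNAA is the core of the element through which ATF4 with a C/EBP partner acts, and CACGTG is the E-box bound by MYC and related factors. The table held 27 of the 36 members, 13 cytosolic and 14 mitochondrial. TGATGNAA was present in 5 of the 13 cytosolic promoters (38.5%; Aars, Gars, Iars, Tars and Yars), in 0 of the 14 mitochondrial ones and in 3.91% of 32544 promoters. CACGTG was present in 4 of 13 (30.8%; Aars, Farsb, Iars and Tars), in 1 of 14 (7.14%; Ears2) and in 7.17% of all. No test was made, a match is a description of the letters, and the motifs do not overlap in the stretches printed. The 4 stretches below show the matches that lie before the start site in promoters of genes that fell with compound 10 in stimulated cells, 5′ to 3′ on the gene's strand, with the motif (or its reverse complement) in capitals. They are chr15:11399659-11399700 (minus strand) for Tars, chr6:55037944-55038000 (plus) for Gars, chr13:49682034-49682093 (plus) for Iars and chr1:78488904-78488963 (minus) for Farsb.
Tars: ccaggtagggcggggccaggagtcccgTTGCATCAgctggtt
Gars: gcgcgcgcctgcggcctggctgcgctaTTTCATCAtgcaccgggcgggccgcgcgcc
Iars: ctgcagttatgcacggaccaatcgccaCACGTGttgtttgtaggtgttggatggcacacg
Farsb: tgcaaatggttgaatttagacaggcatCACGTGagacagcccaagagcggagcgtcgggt
The first motif base lies 15 bases before the start site in Tars, 30 in Gars, 69 in Iars and 39 in Farsb.

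The mitochondrial members as a set moved little with compound 10 in stimulated cells. Of the 16, 2 rose, 1 fell and 13 did not pass, a share near that of all genes, with a median log2 fold change of -0.11. Fars2, the mitochondrial phenylalanyl enzyme gene, had 20.9, 14.4 and 15.4 CPM in compound 10 stimulated against 4.44 and 2.70 CPM in vehicle stimulated libraries, a log2 fold change of 2.23 (SE 0.29, adjusted p = 0.000265). Yars2, for mitochondrial tyrosine, had 11.5, 11.9 and 14.2 CPM against 27.3 and 29.2 CPM (-1.17, SE 0.18, adjusted p = 0.000691). Both kept their call under all 19 alternatives, and the groups were far apart in either gene. Fars2 thus stood higher while Farsa and Farsb, the cytosolic genes for the same amino acid, stood lower, whereas Yars2 and its cytosolic counterpart Yars both stood lower. Cars2 (cysteine) had 7.53, 6.77 and 6.55 CPM against 4.13 and 4.20 CPM (0.74, SE 0.23, adjusted p = 0.0389), and 16 of 19 alternatives ended this call, among them the removal of any 1 library. Cars2 shares 19.7% of its 31-base stretches with Naxd, an overlapping gene on the opposite strand, and the labels do not say that strand was used. Fars2 also overlaps genes on the opposite strand, among them Lyrm4 over 115 bases and Nrn1 over 920 bases. It shares 4.002% of its 31-base stretches with other genes, and the part of this in its values was not tested.

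In unstimulated cells few synthetase transcripts passed with compound 10, at a share near that of all genes. Of the 20 cytosolic members, 1 fell and 0 rose, and of the 16 mitochondrial members 1 rose and 0 fell, where 7.37% of all genes tested passed (4.45% higher, 2.91% lower). At an unadjusted p under 0.05, 7 cytosolic members were lower and 0 higher, and 2 mitochondrial members were higher and 0 lower. Of all 14011 genes tested, 3165 had such a p, in either direction. DESeq2 called the same numbers of members in each direction as edgeR. The cytosolic median was -0.39, against -0.01 for all genes tested, and 16 of 20 estimates were negative.

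Mars2, the mitochondrial methionyl enzyme gene, had 85.7 and 78.3 CPM in compound 10 unstimulated against 19.7 and 21.7 CPM in vehicle unstimulated libraries. The log2 fold change was 1.98 (SE 0.24, adjusted p = 0.000710), the compound 10 libraries lay far above both vehicle libraries, and the call was kept under all 19 alternatives, including the removal of each library. Mars2 is annotated with 1 transcript of 11294 bases, of which 0.115% of 31-base stretches occur in another gene. Mars, its cytosolic counterpart, moved the other way with 10.3 and 8.41 CPM with compound 10 against 20.02 and 14.6 CPM with vehicle (-0.88, SE 0.24, adjusted p = 0.0479). The Mars groups did not overlap, but the call was lost under 13 of 19 alternatives, among them the removal of any 1 library other than compound 10 stimulated library 2. Mars overlaps Ddit3, a stress-induced gene on the other strand, over 68 bases, and Ddit3 had 31.5 and 28.0 CPM in compound 10 unstimulated against 13.5 and 14.3 CPM in vehicle unstimulated libraries (1.10, SE 0.21, adjusted p = 0.0103).

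The 6 cytosolic genes with the lowest estimates in stimulated cells were Cars, Tars, Iars, Mars, Yars and Farsa, and of these Mars alone passed in unstimulated cells. The others had log2 fold changes there of -0.74 for Cars (SE 0.23, adjusted p = 0.0773), -0.63 for Tars (SE 0.23, adjusted p = 0.1199), -0.53 for Iars (SE 0.22, adjusted p = 0.174), -0.24 for Yars (SE 0.22, adjusted p = 0.571) and -0.66 for Farsa (SE 0.20, adjusted p = 0.0709). Cars had 18.7 and 14.9 CPM with compound 10 against 32.6 and 23.4 CPM with vehicle, without overlap. Whether the states differ is tested by the interaction below.

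**Figure D3:**
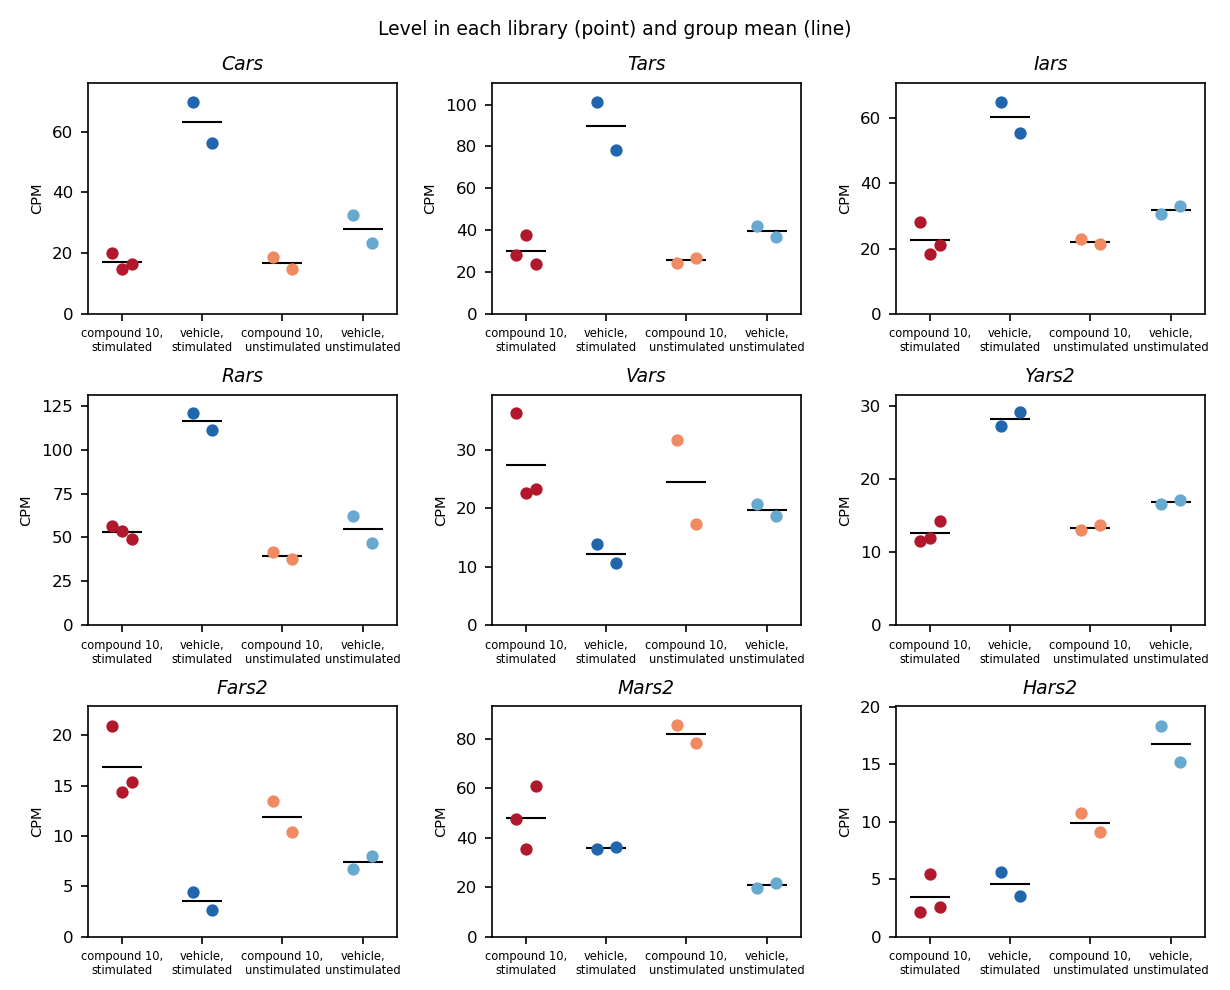
CPM of 9 members in each library (points) with group means (lines), in the order compound 10 stimulated, vehicle stimulated, compound 10 unstimulated and vehicle unstimulated. Cars, Tars, Iars, Rars and Yars2 are highest in the stimulated vehicle libraries, Fars2 is lowest there, Mars2 is highest in compound 10 unstimulated libraries (85.7 and 78.3 CPM), and Hars2 is highest in vehicle unstimulated libraries.

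A set of cytosolic synthetase transcripts was higher after stimulation in vehicle. This comparison shares the stimulated vehicle libraries with that of compound 10 in stimulated cells, so a high value there moves both. Of the 20 cytosolic members, 9 rose and 0 fell, where 28.1% of all genes tested passed (14.4% higher, 13.8% lower). At an unadjusted p under 0.05, 9 were higher and 2 lower, where 5411 of all 14011 genes tested had such a p in either direction. DESeq2 also called 9 higher and 0 lower. The cytosolic median log2 fold change was 0.31, against -0.05 for all genes tested. Rars had 121 and 111 CPM in stimulated against 62.4 and 47.0 CPM in unstimulated vehicle libraries (1.09, SE 0.19, adjusted p = 0.00105). Hars had 103 and 91.2 CPM against 49.5 and 55.3 CPM (0.89, SE 0.17, adjusted p = 0.00203). Tars had 101.2 and 78.2 CPM against 42.0 and 36.9 CPM (1.19, SE 0.23, adjusted p = 0.00231). In these 3 genes both stimulated libraries stood above both unstimulated ones. Cars had 69.7 and 56.4 CPM against 32.6 and 23.4 CPM (1.17, SE 0.23, adjusted p = 0.00259), likewise apart. Nars, Iars, Gars, Aars and Yars rose by between 0.65 and 1.16. The call for Yars (adjusted p = 0.0445) was lost under 13 of 19 alternatives. Vars, Qars, Wars, Farsa and Eprs had estimates below 0, from -0.69 to -0.03, and did not pass.

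Of the 16 mitochondrial members, 2 rose and 3 fell with stimulation in vehicle, a share near the 28.1% of all genes tested, and their median was -0.48. Hars2 (histidine) had 5.64 and 3.54 CPM in stimulated against 18.3 and 15.2 CPM in unstimulated vehicle libraries (-1.86, SE 0.39, adjusted p = 0.00382). Nars2 had 6.84 and 11.1 CPM against 18.2 and 17.2 CPM (-0.98, SE 0.25, adjusted p = 0.0112). Fars2 had 4.44 and 2.70 CPM against 6.77 and 8.06 CPM (-1.05, SE 0.30, adjusted p = 0.0212). All 3 were lower in both stimulated libraries than in either unstimulated one. Yars2 had 27.3 and 29.2 CPM against 16.6 and 17.2 CPM (0.74, SE 0.20, adjusted p = 0.0142), and Mars2 had 35.4 and 36.2 CPM against 19.7 and 21.7 CPM (0.79, SE 0.23, adjusted p = 0.0240), both higher without overlap. Hars and Hars2 lie head to head with 198 overlapping bases on opposite strands, and they moved in opposite directions, Hars higher and Hars2 lower. Hars2 shares 3.82% of its 31-base stretches with Hars.

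The calls for stimulation rested on the scale and on single libraries. On the log2(TPM + 1) scale no cytosolic member passed as higher, where the median of all genes was -0.19. Without stimulated vehicle library 1, 5 cytosolic members passed, as they did without both ribosomal-RNA-rich vehicle libraries. The mitochondrial count was 2 without either unstimulated vehicle library or without stimulated vehicle library 2, 3 without stimulated vehicle library 1, and 1 without both ribosomal-RNA-rich libraries.

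**Figure D4:**
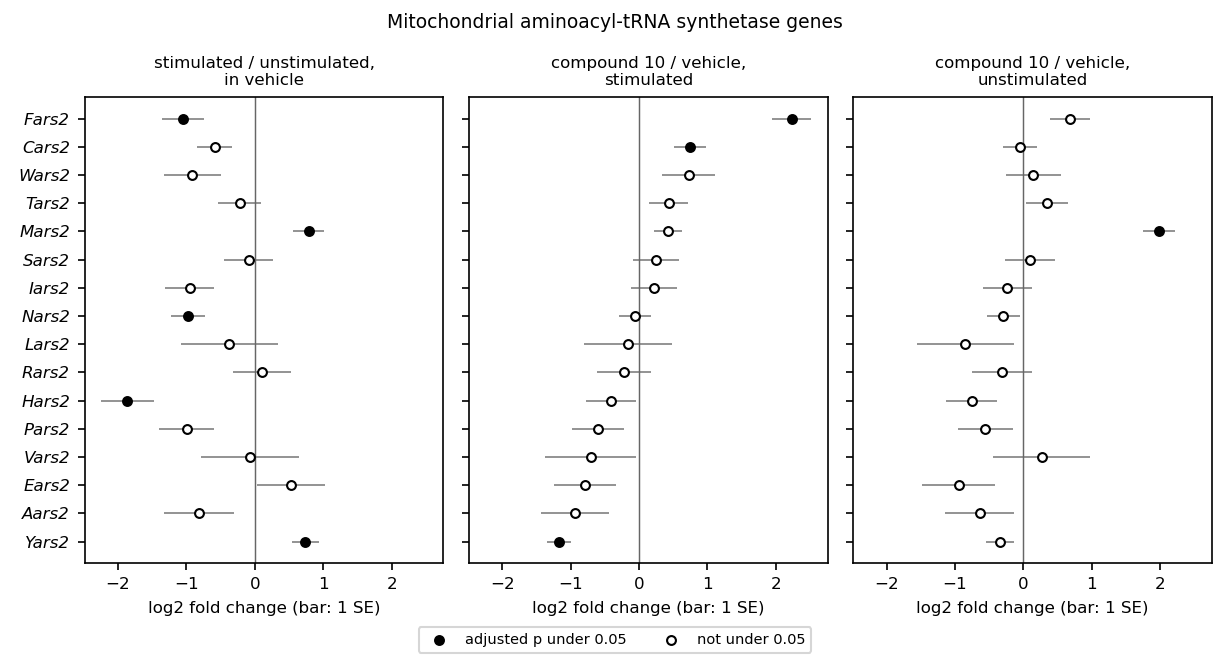
Log2 fold changes with 1 SE for the 16 mitochondrial members in the same 3 comparisons, filled where the adjusted p was under 0.05. Fars2 is at -1.05 with stimulation in vehicle and at 2.23 with compound 10 in stimulated cells, and Mars2 is at 1.98 with compound 10 in unstimulated cells.

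Under compound 10 the median response of the cytosolic members to stimulation was small. Of the 20 cytosolic members, 1 rose and 2 fell, where 21.8% of all genes tested passed (11.0% higher, 10.8% lower), and the cytosolic median was -0.05. Aars rose by 0.52 (SE 0.17, adjusted p = 0.0421). Farsa, at -0.92 (SE 0.19, adjusted p = 0.00375), and Sars, at -0.54 (SE 0.17, adjusted p = 0.0393), fell. Of the 16 mitochondrial members 3 fell and 0 rose, a share near the 21.8% of all genes tested, and 0 rose by DESeq2. At an unadjusted p under 0.05, 5 were lower and 0 higher. Of all 14011 genes tested, 4742 had such a p, in either direction. The 3 that fell were Hars2 (-1.52, SE 0.35, adjusted p = 0.00938), Mars2 (-0.77, SE 0.20, adjusted p = 0.0176) and Nars2 (-0.75, SE 0.23, adjusted p = 0.0327). Hars2 and Nars2 thus fell with stimulation under compound 10 and in vehicle alike. Hars2 had 2.16, 5.47 and 2.62 CPM in stimulated against 10.7 and 9.13 CPM in unstimulated compound 10 libraries, and Nars2 had 9.21, 8.40 and 8.21 CPM against 15.5 and 13.4 CPM. The cytosolic count was 1 without either unstimulated vehicle library, compound 10 unstimulated library 1 or compound 10 stimulated library 3, and 0 without compound 10 unstimulated library 2. The mitochondrial count was 0 and 1 without compound 10 unstimulated libraries 1 and 2.

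The interaction asks whether compound 10 had a different effect in stimulated and in unstimulated cells. It was passed by 1 of the 36 members, where 1.03% of all genes tested passed (0.421% higher, 0.607% lower). That member was Mars2, with an interaction of -1.56 (SE 0.31, adjusted p = 0.0375). Mars2 had 47.8, 35.3 and 61.0 CPM in compound 10 stimulated against 35.4 and 36.2 CPM in vehicle stimulated libraries, which overlapped (0.42, SE 0.21, adjusted p = 0.177), while the unstimulated groups were far apart. The interaction lost its call under 11 of 19 alternatives, among them the removal of either library of any group of 2 and of compound 10 stimulated library 1, with adjusted p between 0.0684 and 0.151 without these. None of the 20 cytosolic members passed with edgeR, and DESeq2 called 2, both lower. At an unadjusted p under 0.05 with edgeR, 11 of the 20 were lower and 0 higher. Of all 14011 genes tested, 2053 had such a p, in either direction. The cytosolic median was -0.65, against 0.01 for all genes tested, with the furthest estimates at Yars (-1.15, SE 0.30, adjusted p = 0.0972) and Cars (-1.14, SE 0.31, adjusted p = 0.112). With no filter on low counts 2 cytosolic members passed as lower, and without compound 10 stimulated library 2 there was 1. Fars2 had an interaction of 1.55 (SE 0.40, adjusted p = 0.0927).

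Other genes of the tRNA pathway were read beside the family, from lists of known pathway genes. Of 22 genes of RNA polymerase III and its factors, which transcribe tRNA genes, 8 fell and 1 rose with compound 10 in stimulated cells (median -0.57), where 11.4% of all genes tested fell and 11.7% rose. Gtf3c4, a TFIIIC subunit, had 11.1, 12.5 and 10.04 CPM with compound 10 against 28.9 and 26.4 CPM with vehicle (-1.30, SE 0.18, adjusted p = 0.000430). Polr3a, the largest subunit of the polymerase, had 4.97, 2.28 and 2.62 CPM against 12.5 and 11.8 CPM (-1.89, SE 0.30, adjusted p = 0.000918). Both were lower in every compound 10 library. Of 16 tested genes for tRNA export and end processing, 6 fell and 2 rose in the same comparison (median -0.38), and Rpp14, a subunit of RNase P, had 5.93, 9.38 and 7.07 CPM against 24.7 and 24.8 CPM (-1.72, SE 0.21, adjusted p = 0.000220). Xpot, the nuclear export receptor for tRNA, had 14.8, 7.36 and 8.38 CPM against 27.8 and 26.8 CPM (-1.42, SE 0.27, adjusted p = 0.00276). With stimulation in vehicle, 4 of the 22 polymerase III genes rose and 2 fell, a share near the 28.1% of all genes. Maf1, a repressor of this polymerase, had 87.5 and 50.7 CPM in stimulated against 325 and 254 CPM in unstimulated libraries (-2.07, SE 0.25, adjusted p = 9.26e-05).

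None of 8 cytosolic elongation and release factors passed for compound 10 in either state with edgeR, also none at an unadjusted p under 0.05. Such a p was held by 4822 of all 14011 genes tested in stimulated cells and by 3165 in unstimulated cells. With stimulation in vehicle 2 of the 8 rose, where 14.4% of all genes did, namely the release factor gene Etf1 by 1.73 (SE 0.21) and Eif5a by 1.53 (SE 0.29). Of 11 mitochondrial translation factors, 2 fell and 1 rose with compound 10 in stimulated cells, near the 23.1% of all genes, namely the elongation factor genes Gfm1 (-1.36, SE 0.24) and Tufm (-0.75, SE 0.16) and the recycling factor gene Gfm2 (1.23, SE 0.24). Among 3 genes of the mitochondrial amidotransferase 1 fell with compound 10 in stimulated cells, where 11.4% of all genes fell and 11.7% rose. Neither this list nor the next is long enough to be set against those shares. Of 4 genes for enzymes that clear wrongly charged tRNA, 1 rose. This was Dtd1, a D-aminoacyl-tRNA deacylase, with 16.8, 17.98 and 15.8 CPM in compound 10 stimulated against 3.86 and 4.50 CPM in vehicle stimulated libraries (2.01, SE 0.23, adjusted p = 0.000135), and with 12.8 and 9.91 CPM in compound 10 unstimulated against 4.32 and 3.87 CPM in vehicle unstimulated libraries (1.47, SE 0.24, adjusted p = 0.00448).

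Of 24 tested amino acid response genes, 3 rose and 4 fell with compound 10 in stimulated cells, a share near the 23.1% of all genes tested. In unstimulated cells, where 7.37% of all genes passed, 4 rose and 0 fell. At an unadjusted p under 0.05, 9 were higher and 2 lower there, where 3165 of all 14011 genes tested had such a p in either direction. The median there was 0.31 against -0.01 for all genes tested. Ddit4, an inhibitor of mTOR signalling, had 29.5, 34.0 and 28.5 CPM in compound 10 stimulated against 10.2 and 8.39 CPM in vehicle stimulated libraries (1.72, SE 0.21, adjusted p = 0.000224). Slc7a1, a transporter of cationic amino acids, had 76.5, 65.9 and 89.8 CPM against 175 and 182 CPM (-1.20, SE 0.17, adjusted p = 0.000420). Ddit3 had 23.8, 20.97 and 19.3 CPM against 7.57 and 9.77 CPM (1.30, SE 0.20, adjusted p = 0.000755), and Psph, of serine synthesis, 53.0, 50.4 and 49.0 CPM against 26.8 and 19.9 CPM (1.12, SE 0.18, adjusted p = 0.000834). None of the 4 overlapped between the groups. With stimulation in vehicle 10 of the 24 rose and 2 fell, where 14.4% and 13.8% of all genes did.

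Lars2, the mitochondrial leucyl enzyme gene, behaved unlike the rest of the family. It held between 91.7% and 97.2% of the TPM of all mitochondrial members in each library. Its share of all counts was 0.361%, 0.213% and 0.432% in compound 10 stimulated, 0.176% and 0.563% in vehicle stimulated, 0.389% and 0.365% in compound 10 unstimulated, and 0.352% and 0.780% in vehicle unstimulated libraries. In the same libraries nuclear ribosomal RNA took 9.66%, 1.78% and 7.48%, then 3.57% and 13.8%, then 6.67% and 3.11%, then 4.72% and 26.3% of the counts. The 2 libraries with most ribosomal RNA also had the 2 largest Lars2 shares, a description over 9 libraries that share their depth as a denominator, and the part of ribosomal RNA in the Lars2 values was not tested. Lars2 had 4184, 2173 and 5234 CPM in compound 10 stimulated against 2003 and 6613 CPM in vehicle stimulated libraries, which overlapped (-0.16, SE 0.65, adjusted p = 0.9002), and it passed in none of the 5 comparisons.

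**Figure D5:**
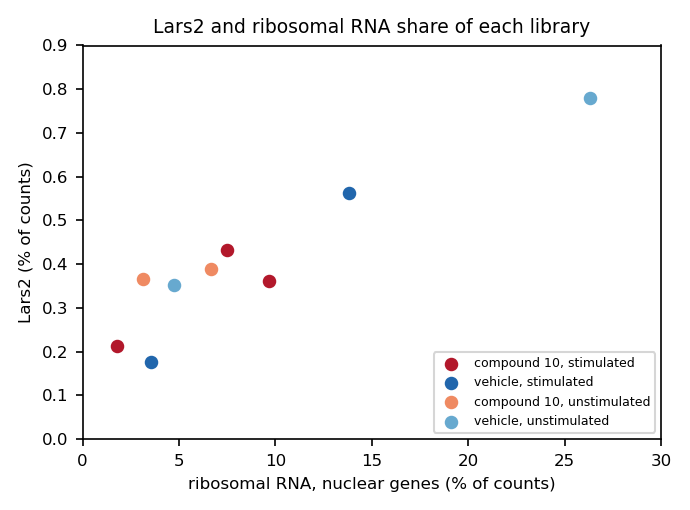
Lars2 as a percentage of all counts (vertical axis) against ribosomal RNA from nuclear genes as a percentage of all counts (horizontal axis), with 1 point per library coloured by group. The vehicle unstimulated library with 26.3% ribosomal RNA has the highest Lars2 share, 0.780%.

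The other mitochondrial members had low levels. Aars2, Ears2, Rars2, Sars2 and Vars2 had between 0.195 and 2.82 CPM in every library, Pars2, Wars2 and Tars2 between 1.04 and 8.01 CPM, and Iars2 between 4.82 and 15.2 CPM, and none of these 9 passed in any of the 5 comparisons. Iars2 shares 23.5% of its 31-base stretches with other genes, Iars 14.7%, Farsb 8.46%, Hars 8.42%, Vars2 7.28%, Nars2 5.92% and Fars2 4.002%. Their values may be uncertain for this reason, and how far was not tested. Summed over the cytosolic members, most counts lay on transcripts annotated as protein coding, 89.9% to 95.9% in each library. The share was lower in some members. In Yars it was 70.8%, 56.3% and 46.3% in compound 10 stimulated against 71.9% and 69.7% in vehicle stimulated libraries. In Mars it was 75.2%, 78.8% and 75.7% against 94.7% and 97.8%, and in Farsb 63.2%, 81.7% and 42.6% against 82.6% and 64.1%. With protein-coding transcripts alone, all 14 cytosolic calls for compound 10 in stimulated cells were kept. Transcripts with a retained intron took 6.50% and 9.37% of the cytosolic counts in compound 10 unstimulated against 4.16% and 6.18% in vehicle unstimulated libraries, and 4.76%, 4.70% and 6.15% in compound 10 stimulated against 3.38% and 5.36% in vehicle stimulated libraries.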

How the data were processed

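RNA from 9 libraries was sequenced with Clontech SMART-seq, per the labels' protocols. The submitters' processing notes name cutadapt, kallisto and mm10, without versions; which transcript annotation was used is not given here. The deposited estimated counts per transcript carried no normalization between libraries. The deposited TPM values came in a further column of each table, per the file headers.

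Of 109617 transcripts, 108214 matched GENCODE M21 with the version ignored, and unmatched ones held 0.542% to 0.829% of the counts. Counts were summed per gene and rounded. edgeR 4.0.16 in R 4.3.3 was used (filterByExpr by group, TMM, glmQLFit with robust shrinkage, glmQLFTest, 2-sided), with 1 coefficient for each of 4 groups, leaving 14011 genes. Adjusted p-values are Benjamini-Hochberg over these, with a threshold of 0.05, and SE is the absolute log2 fold change over the square root of F. CPM is scaled by TMM. The code was tested on simulated data. The biological coefficient of variation was 0.244. Libraries of a group differed by more than sampling noise, so none was treated as a copy of another. This cannot show whether they are separate biological samples or technical repeats.

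Members and lists were chosen with earlier results of these data known. Every member is named; values in every library are given for those with an adjusted p under 0.05 for compound 10 or the interaction and for the 4 cytosolic and 4 mitochondrial members with the smallest p for stimulation in vehicle, and from each other list at most 4 genes with the smallest p. Ddit3 beside Mars, and Gars, Iars and Farsb among the sequences, were named for what they share with a member or motif. Alternatives were median-of-ratios (RLE) scaling, DESeq2 1.42.0, no filter, a mean of at least 5 CPM, limma 3.58.1 on log2(TPM + 1) (mean TPM at least 1, or no filter) or log2(TPM + 0.1), protein-coding transcripts alone, a replicate block and leaving out each library. Promoter sequences are RefSeq's. Overlaps and shared 31-base stretches come from GENCODE M21.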

Additional observations from a re-analysis of the deposited data

Results flagged for a closer look

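The effect of compound 10 on Mars2, the mitochondrial methionyl enzyme gene, differed between stimulated and unstimulated cells, with a difference of -1.56 on the log2 scale (SE 0.31, edgeR adjusted p = 0.0375), tested as the interaction. That call was lost under 11 of the 19 alternatives. The gene had 47.8, 35.3 and 61.0 CPM in compound 10 stimulated against 35.4 and 36.2 CPM in vehicle stimulated libraries, and 85.7 and 78.3 CPM in compound 10 unstimulated against 19.7 and 21.7 CPM in vehicle unstimulated libraries. In raw terms these were 597, 542 and 699 estimated counts, 678 and 603, 1319 and 1415, and 274 and 337. The adjusted p ranged from 9.92e-05 to 0.316 over the alternatives.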

How the results depend on the processing

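No called member changed direction under any of the 19 alternatives run for each. The numbers of members called moved as follows. With limma on log2(TPM + 1) or log2(TPM + 0.1), compound 10 gave 9 cytosolic calls in stimulated and 0 in unstimulated cells, stimulation in vehicle gave 0, and the interaction gave 0 mitochondrial calls; with no TPM filter 0 cytosolic members passed in any of these or for stimulation under compound 10, with 1 mitochondrial member for stimulation in vehicle, 1 under compound 10 and 0 for the interaction. In unstimulated cells compound 10 gave 0 cytosolic calls with RLE scaling and without both ribosomal-RNA-rich vehicle libraries, 2 with no filter or the stricter filter, and 3 with protein-coding transcripts. With no filter stimulation under compound 10 gave 1 cytosolic call. The interaction gave 2 cytosolic and 2 mitochondrial calls with DESeq2 and with no filter. Without both ribosomal-RNA-rich libraries, an alternative chosen after seeing the data, stimulation in vehicle gave 5 cytosolic and 1 mitochondrial calls and the interaction 0 mitochondrial calls. Of all genes, 3234 passed for compound 10 in stimulated cells, against 944 and 1063 with limma at the pseudocounts 1 and 0.1 and 313 with no TPM filter. Compound 10 in unstimulated cells had 1032, against 1569 with no filter and 123, 134 and 61 in these limma settings; stimulation in vehicle had 3939, against 2035, 2066 and 1298, and under compound 10 it had 3052, against 1832, 1849 and 810. The interaction had 144 genes, against 374 with DESeq2, 512 with no filter, 17, 18 and 13 in the same limma settings and 43 with the block. The causes were not tested.

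Leaving out 1 library at a time gave 11 to 17 cytosolic and 2 to 4 mitochondrial calls for compound 10 in stimulated cells, 0 to 1 and 1 in unstimulated cells, 5 to 10 and 2 to 6 for stimulation in vehicle, 0 to 3 and 0 to 3 for stimulation under compound 10, and 0 to 1 and 0 to 1 for the interaction. The ratio of summed cytosolic to mitochondrial TPM with Lars2 was 0.432 in compound 10 stimulated, 0.777 in vehicle stimulated, 0.441 in compound 10 unstimulated and 0.376 in vehicle unstimulated cells, and without Lars2 (chosen after seeing the data) 8.57, 13.3, 6.57 and 6.93. In compound 10 unstimulated cells it was 0.294 on CPM, 0.360 without Gars and Kars, and 0.396 with protein-coding transcripts. Leaving out 1 library gave 0.302 to 0.518, 0.345 to 1.21, 0.415 to 0.468 and 0.170 to 0.581 in the same order of groups.

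Samples that share a replicate number correlated between -0.101 and 0.326 in their deviations from the group means, so the number was not taken to pair them. With a replicate block, 2 cytosolic members passed for compound 10 in unstimulated cells, and 1 cytosolic and 1 mitochondrial member for stimulation under compound 10; in stimulated cells 14 and 2 passed, and for stimulation in vehicle 9 and 6. With the numbers of the compound 10 unstimulated libraries crossed in the block, chosen after seeing the data, 0 cytosolic and 1 mitochondrial members and 580 genes passed in unstimulated cells.

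Depth limits the lowest members most: Vars2 had 3 estimated counts in compound 10 stimulated library 2, and Aars2 3 in library 3.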
